A study of Mus musculus with 26 samples.

Results

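The Hox genes are the homeobox genes of the A, B, C and D clusters. Rows of the deposited expression table were taken as members when their symbol was Hoxa, Hoxb, Hoxc or Hoxd followed by a number, which gave 32 genes of 16718 rows. The GENCODE M21 annotation of the mm10 genome holds 39 such genes. The table held 9 of 11 in cluster A (chr6:52155590-52260880), 9 of 10 in cluster B (chr11:96194316-96368256), 8 of 9 in cluster C (chr15:102921103-103036852) and 6 of 9 in cluster D (chr2:74668310-74765142). Hoxa6, Hoxa13, Hoxb1, Hoxc11, Hoxd1, Hoxd11 and Hoxd12 were not analysed here.

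The study followed mouse cells by RNA sequencing while fibroblasts were treated with small molecules that induce pluripotency. The minus BrdU course left out BrdU, a thymidine analogue, and was sampled on days 6, 12, 18, 22, 30, 36 and 40. The minus Chir course left out Chir, the usual short name of an inhibitor of the kinase GSK3, and was sampled on days 6, 12, 18, 22 and 30. The full course received all chemicals and was sampled on the same 7 days as minus BrdU. The starting mouse embryonic fibroblasts (MEF) gave 1 library at day 0, and the chemically induced pluripotent stem cells (CiPSC) gave 6 libraries. The other chemicals, their doses, the mouse strain and the origin of the 6 CiPSC libraries are not given in the sources used here. Each course had 1 library a day, so days stood in for repeats within a course. P-values of course comparisons therefore measure how the difference between courses varied from day to day. Those of trends measure the scatter around a line. Those against CiPSC measure the spread between 6 CiPSC libraries that nothing says came from separate lines.

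Hox genes encode transcription factors that bind DNA through a homeodomain and give cells their identity along the body axis. Their order along each chromosome follows the order of their domains from head to tail, with low numbers anterior and high numbers posterior, and genes with the same number in different clusters are paralogs. Fibroblasts keep the Hox pattern of the body site they came from, whereas in pluripotent cells the clusters are largely silent under Polycomb marks.

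The stretch of the homeobox below is shown because the genes compared here are distinguished by cluster and by position, and it lets the paralogs be read side by side. Each line is 60 bases of the coding strand from the GENCODE M21 transcripts (mm10), and the capitals mark the 18 bases that encode the core of the DNA recognition helix. Between the 30 pairs of members at the same position, 43 to 58 of the 60 bases were equal, with a median of 51. Between the other 466 pairs, 34 to 55 were equal, with a median of 44. The 18 core bases came in 25 different spellings over the 32 genes.
Hoxb6, chr11:96300806-96300865, plus strand: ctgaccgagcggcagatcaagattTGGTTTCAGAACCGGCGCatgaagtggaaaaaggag
Hoxc6, chr15:103010871-103010930, plus strand: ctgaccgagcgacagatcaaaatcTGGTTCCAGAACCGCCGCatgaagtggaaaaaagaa
Hoxa10, chr6:52232557-52232616, minus strand: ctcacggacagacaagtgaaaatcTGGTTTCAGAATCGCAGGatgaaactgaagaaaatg
Hoxc10, chr15:102970965-102971024, plus strand: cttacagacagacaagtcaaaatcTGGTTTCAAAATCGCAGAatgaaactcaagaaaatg
Hoxd10, chr2:74694258-74694317, plus strand: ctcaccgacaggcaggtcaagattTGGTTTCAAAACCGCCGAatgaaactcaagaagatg
Hoxb13, chr11:96196137-96196196, plus strand: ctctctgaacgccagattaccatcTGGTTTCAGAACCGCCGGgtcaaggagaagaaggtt
Hoxc13, chr15:102927327-102927386, plus strand: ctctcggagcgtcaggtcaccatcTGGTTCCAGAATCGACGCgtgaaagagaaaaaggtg
Hoxd13, chr2:74670047-74670106, plus strand: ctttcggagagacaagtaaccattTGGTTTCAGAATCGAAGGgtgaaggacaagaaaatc

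Over whole transcripts, the longest run shared by members of different clusters was 50 bases, between Hoxb9 and Hoxc9, against reads of 75 cycles, so none of the 381 pairs shared a run as long as a read. Within the annotation, the exons of 4 members overlapped those of another member on the same strand, namely Hoxc5 with Hoxc10 over 166 bases and Hoxd3 with Hoxd4 over 388 bases. Exons of 10 members overlapped an antisense transcript, such as Hoxa11 with Hoxa11os over 800 bases. Whether the counting used strand is not given in the sources used here, so reads from such overlaps cannot be told apart.

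RefSeq promoter windows (GRCm38.p6) were found for 16 of the 32 members, in 17 windows. The 250 bases before the start of Hoxa5, Hoxa9 and Hoxa10 are shown because these cluster A genes were all called higher without BrdU while the CG content of their windows differs, and the capitals mark CG dinucleotides. The window of Hoxa5 held 28 CG, that of Hoxa9 held 3 and those of the listed starts of Hoxa10 held 20 and 7.
Hoxa5, chr6:52204588-52204837, minus strand: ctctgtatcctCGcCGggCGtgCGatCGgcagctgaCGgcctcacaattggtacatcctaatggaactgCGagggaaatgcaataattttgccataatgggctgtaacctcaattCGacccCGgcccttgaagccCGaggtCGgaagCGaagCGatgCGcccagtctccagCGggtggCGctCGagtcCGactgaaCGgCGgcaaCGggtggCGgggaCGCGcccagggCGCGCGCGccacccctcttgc
Hoxa9, chr6:52227371-52227620, minus strand: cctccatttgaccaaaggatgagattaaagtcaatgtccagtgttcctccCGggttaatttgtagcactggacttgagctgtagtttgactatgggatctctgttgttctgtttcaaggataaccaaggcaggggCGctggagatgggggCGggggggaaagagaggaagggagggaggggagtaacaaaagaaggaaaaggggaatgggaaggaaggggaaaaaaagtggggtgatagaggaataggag
Hoxa10, chr6:52234940-52235189, minus strand: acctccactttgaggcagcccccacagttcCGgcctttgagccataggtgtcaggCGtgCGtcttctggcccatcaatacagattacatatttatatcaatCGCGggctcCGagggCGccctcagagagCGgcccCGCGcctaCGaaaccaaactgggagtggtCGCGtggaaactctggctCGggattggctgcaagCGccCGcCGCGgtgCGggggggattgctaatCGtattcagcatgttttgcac
Hoxa10, chr6:52240855-52241104, minus strand: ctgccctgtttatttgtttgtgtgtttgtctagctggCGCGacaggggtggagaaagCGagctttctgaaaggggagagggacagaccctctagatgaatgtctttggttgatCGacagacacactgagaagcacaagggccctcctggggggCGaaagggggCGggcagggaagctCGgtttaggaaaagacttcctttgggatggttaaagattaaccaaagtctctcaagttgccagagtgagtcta
Over the 17 windows the median was 12 CG per 250 bases, with a range of 3 to 31, against a median of 6 over 32851 RefSeq windows. A Hox-Pbx type motif (TGATNNAT, both strands) was in 2 of the 17 windows (Hoxb8 and Hoxa2) and in 7.68% of all windows. An AP-1 type motif (TGANTCA, both strands) was in none of the 17 and in 6.75% of all. These letters describe the windows and say nothing of binding.

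The deposited values are a score with nearly the same distribution in every library, with library totals of 4143561 to 4162600, so depth is unknown and a level is relative to the other genes of its library. The 10 fibroblast markers summed to 40992 to 89099 in minus BrdU, 10676 to 38389 in minus Chir, 10509 to 59835 in the full course, 84254 in MEF and 116 to 582 in CiPSC, where Twist2 was listed at 0 in all 6 libraries. The 8 pluripotency markers summed to 18 to 39 in minus BrdU, 86 to 312 in minus Chir, 87 to 4959 in the full course, 15 in MEF and 25823 to 41619 in CiPSC. The 8 extraembryonic endoderm markers summed to 378 to 963 in minus BrdU, 700 to 859 in minus Chir and 645 to 11389 in the full course. The 8 macrophage markers summed to 3706 in MEF and to at most 450 in any other library. In such bulk samples, fewer cells of a type and less RNA per cell cannot be told apart.

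**Figure D1:**
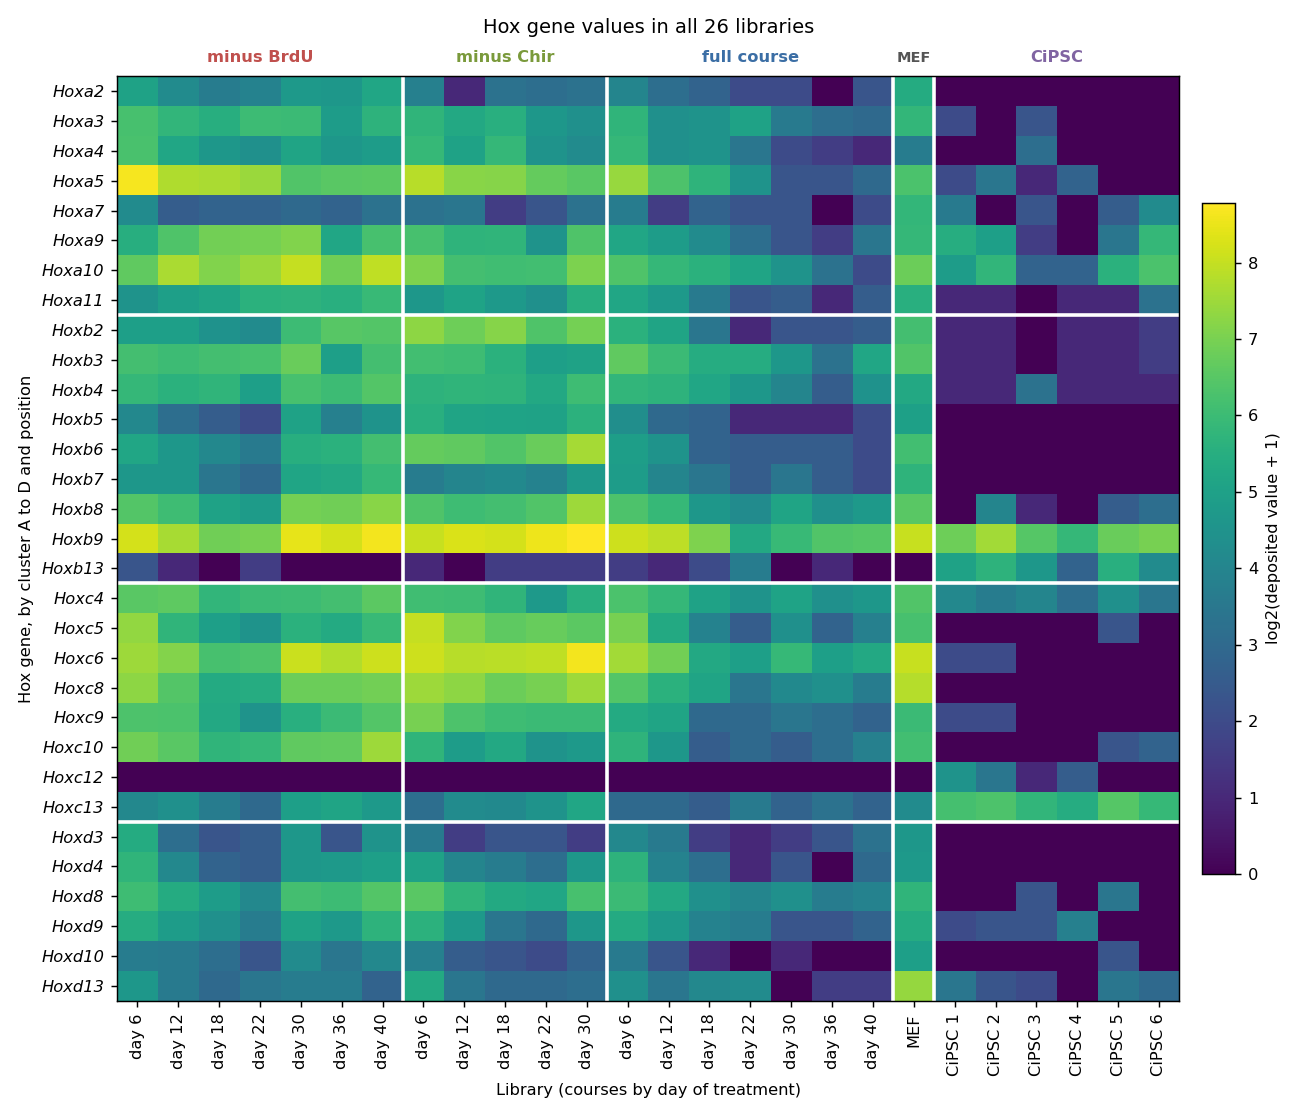
Values of 31 Hox genes (rows, by cluster and position) in all 26 libraries (columns, by group and day), coloured by log2(deposited value + 1). The right-hand columns of the full course are darker than those of minus BrdU and minus Chir, and in CiPSC most rows are at or near 0 except Hoxb9, Hoxb13, Hoxc13, Hoxa10 and a few others.

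MEF held transcripts from all clusters. Per kilobase of exon, the highest levels in MEF were those of Hoxc6 at 110, Hoxb9 at 101, Hoxc8 at 77.7, Hoxd13 at 66.9 and Hoxa5 at 41.6. Hoxc6, Hoxc8 and Hoxb9 belong to the trunk and Hoxd13 to the distal limb and the urogenital tract. Hoxb13 and Hoxc12 were listed at 0 in MEF.

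In the full course most Hox genes fell with time. Over MEF and the 7 days, 22 of 31 members tested fell and 0 rose (limma slope on log2(value + 1), Benjamini-Hochberg adjusted p under 0.05 over all genes). Of all 16314 genes, 7.42% were called falling and 9.31% rising. An unadjusted p under 0.05 was found for 27 members and for 5245 of all genes. The median slope over the members was -0.84 log2 units per 10 days, against 0.01 over all genes. Cluster A had 7 of 9 members falling, B 6 of 9, C 5 of 7 and D 4 of 6. By position, 6 of 10 fell at positions 1 to 4, 9 of 10 at positions 5 to 8 and 7 of 11 at positions 9 to 13.

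Hoxa10, a posterior gene of the limb and uterus, was at 110 in MEF and at 82, 56, 48, 34, 22, 9 and 3 on days 6, 12, 18, 22, 30, 36 and 40. It declined at every step, with a slope of -1.08 ± 0.14 (SE, adjusted p = 0.00261). Hoxa5, which patterns the lung and the neck to thorax transition, was at 78 in MEF and at 170, 80, 51, 22, 4, 4 and 7 over the same days. Its values on days 6 and 12 lay above MEF and those from day 18 below it, with a slope of -1.28 ± 0.21 (adjusted p = 0.0061). Hoxd9, a limb and lumbar gene, was at 41 in MEF and at 40, 26, 14, 12, 4, 4 and 6. Its slope was -0.84 ± 0.15 (adjusted p = 0.00718), and these 3 members kept the call when any 1 library was left out.

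The low point differed between members. Of the 31 members above 0 in the full course, 2 had their lowest value on day 18, 9 on day 22, 6 on day 30, 14 on day 36 and 9 on day 40, with tied days each counted. On day 40 the 30 members that were above 0 in MEF stood at a median of 13.6% of their MEF value, and 29 of them were under 50%. Below MEF on that day were 30 of 32 members, against 47.5% of 16378 genes. The share of all genes under 50% was not counted. Hoxd13 was at 166 in MEF and at 20, 10, 16, 18, 0, 2 and 2 over the days of the full course, so most of its drop lay between MEF and day 6. Its slope was -1.36 ± 0.30 (adjusted p = 0.0178), and 0.0715 without MEF. The count of falling members was 11 without MEF or without day 6 and 10 without day 36.

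In the courses that lacked a chemical, few genes of any kind had a called trend, so the counts say nothing particular about the Hox genes. Of the members, 0 of 30 were called in minus BrdU (background 0.315% rising and 0.56% falling) and 0 of 31 in minus Chir (0.1% rising and 0.1% falling). At an unadjusted p under 0.05 there were 1 and 8 members, against 2322 of 15886 and 3449 of 16004 genes. The median slopes were -0.01 and -0.10 log2 units per 10 days. The 3 trends share the MEF library.

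**Figure D2:**
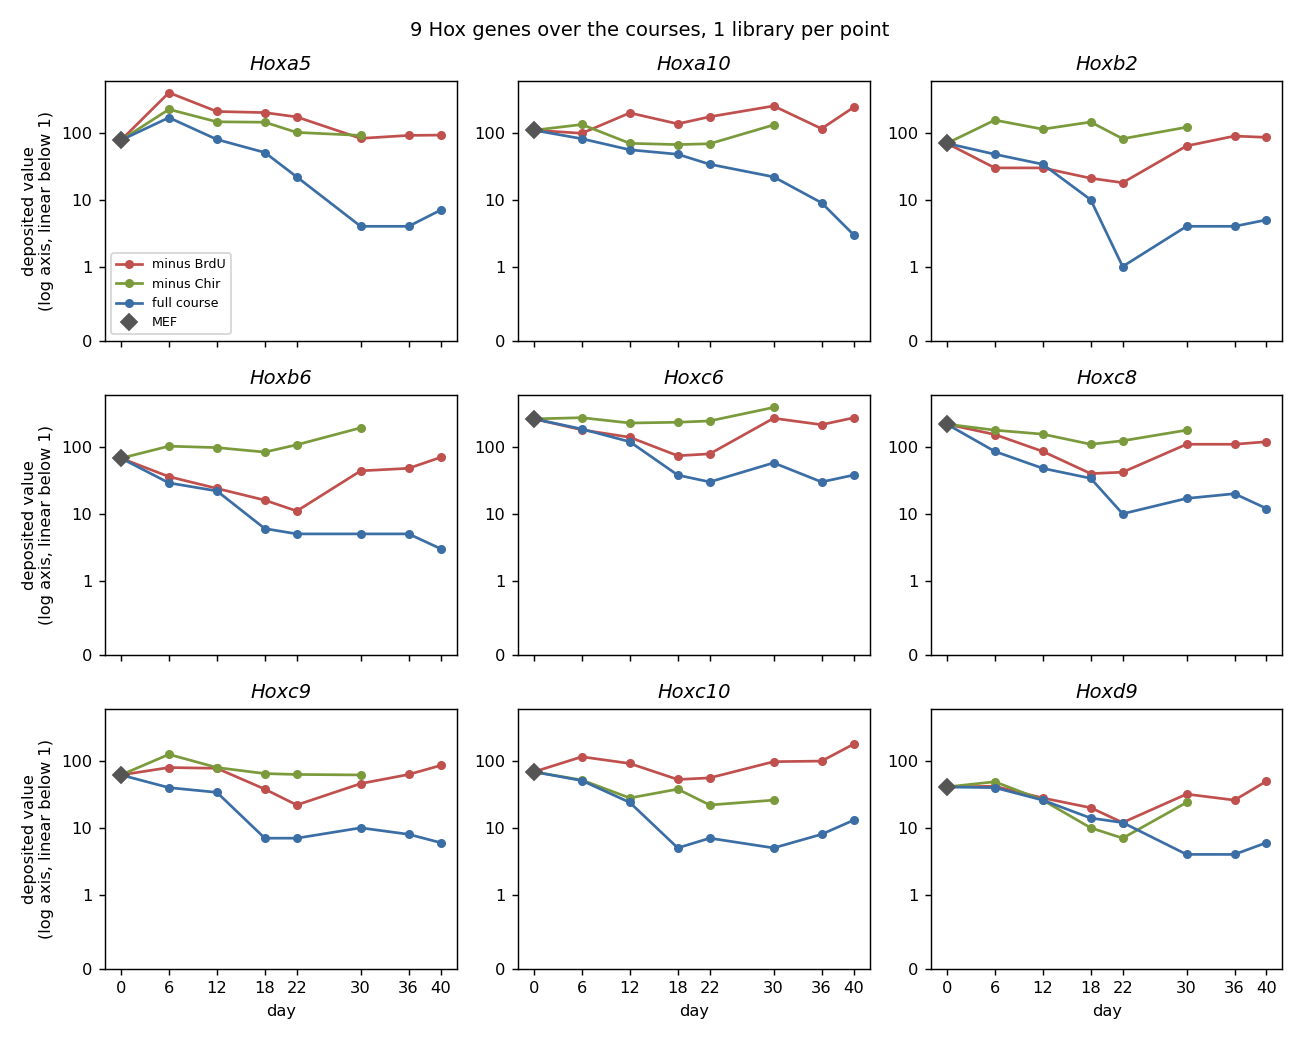
Deposited values (log axis, linear below 1) of 9 Hox genes by day in the minus BrdU, minus Chir and full courses, with the MEF library at day 0. On day 30 Hoxa10 was at 254 in minus BrdU, 132 in minus Chir and 22 in the full course, and Hoxd9 was at 32, 24 and 4 in the same order.

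Without BrdU the Hox genes were higher than in the full course. In limma with day as a block over the 7 shared days, 20 of 31 members were higher and 0 lower, against 21.1% of all 16308 genes called higher and 21.5% called lower. The median difference of the members was 1.44 on the log2(value + 1) scale, against 0.02 over all genes. Of 31 differences 29 were positive, and 29 had an unadjusted p under 0.05, against 8510 of all 16308 genes. Cluster A had 7 of 9 members higher, B 4 of 9, C 7 of 7 and D 2 of 6. By position, 5 of 10 were higher at positions 1 to 4, 7 of 10 at positions 5 to 8 and 8 of 11 at positions 9 to 13.

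Hoxc10, a hindlimb and lumbar gene, was at 116, 92, 53, 56, 98, 100 and 179 in minus BrdU on days 6, 12, 18, 22, 30, 36 and 40, against 51, 24, 5, 7, 5, 8 and 13 in the full course. The courses did not overlap, and the difference of 2.90 ± 0.35 (adjusted p = 0.000759) was the largest of the members. Hoxa5 was at 402, 210, 202, 174, 83, 92 and 93 in minus BrdU, against 170, 80, 51, 22, 4, 4 and 7 in the full course. It was above the full course on all 7 days, by 2.77 ± 0.40 (adjusted p = 0.00136). Hoxc9, a thoracic gene, was at 80, 78, 38, 22, 46, 63 and 86 in minus BrdU, against 40, 34, 7, 7, 10, 8 and 6 in the full course. It too was higher on all 7 days, by 2.08 ± 0.34 (adjusted p = 0.00207).

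All 3 position 10 genes were called higher. Hoxa10 was at 99, 200, 137, 175, 254, 116 and 242 in minus BrdU, against 82, 56, 48, 34, 22, 9 and 3 in the full course, a difference of 2.69 ± 0.57 (adjusted p = 0.00597). Hoxd10, which acts in motor neurons and limbs, was at 12, 11, 8, 4, 18, 10 and 16 in minus BrdU, against 11, 4, 1, 0, 1, 0 and 0 in the full course. Its difference was 2.38 ± 0.50 (adjusted p = 0.0059) at values that stayed low in both courses.

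The abundant trunk genes of clusters B and C were called with smaller differences on the log2 scale than Hoxc10. Hoxb9, a thoracic gene, was at 294, 197, 117, 124, 350, 293 and 396 in minus BrdU, against 272, 238, 134, 38, 60, 84 and 88 in the full course. The full course was above on days 12 and 18, and the difference was 1.11 ± 0.38 (adjusted p = 0.0389). Hoxc6 was at 181, 140, 74, 79, 270, 216 and 274 in minus BrdU, against 186, 120, 38, 30, 58, 30 and 38 in the full course, a difference of 1.47 ± 0.38 (adjusted p = 0.0127). Hoxc8, a brachial and thoracic gene, was at 154, 86, 40, 42, 110, 110 and 120 in minus BrdU, against 86, 48, 34, 10, 17, 20 and 12 in the full course. Its difference was 1.73 ± 0.37 (adjusted p = 0.00608). Hoxb8 was at 86, 66, 32, 27, 122, 117 and 148 in minus BrdU, against 80, 58, 24, 18, 34, 20 and 26 in the full course, a difference of 1.15 ± 0.36 (adjusted p = 0.0289). For both Hoxc8 and Hoxb8 minus BrdU was above the full course on all 7 days, with the narrowest gaps on days 6, 12 and 18.

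In cluster D, Hoxd8 was at 66, 41, 28, 16, 70, 64 and 86 in minus BrdU, against 62, 38, 20, 15, 20, 12 and 14 in the full course. The difference of 1.05 ± 0.38 (adjusted p = 0.0492) sat at the threshold. Hoxd9 was at 42, 28, 20, 12, 32, 26 and 50 in minus BrdU, against 40, 26, 14, 12, 4, 4 and 6 in the full course, a difference of 1.24 ± 0.46 that did not pass (adjusted p = 0.0556). Both genes had like values in the courses until day 22 and separated values from day 30.

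Hoxb13, singled out after its values were seen, had a negative difference. It stayed at 0 to 4 in minus BrdU, against 0 to 12 in the full course, a difference of -0.63 ± 0.47 that did not pass (adjusted p = 0.305).

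Leaving out single days moved the count of higher members between 12, without day 30 or day 36, and 25, without day 6. It was 13 without day 40 and 11 on days 6 to 30 alone. Calls over all genes in either direction moved too. They numbered 5366 without day 40, 7428 without day 6 and 3735 on days 6 to 30 alone, against 6946 in the main fit. Of the 20 calls, 12 held when any 1 day was left out. Those of Hoxb9, Hoxb8 and Hoxd8 were lost without some days, with adjusted p of up to 0.103, 0.0772 and 0.125. The calls of Hoxc13, Hoxa4, Hoxb6, Hoxa11 and Hoxb2 were lost without some days too. Those of Hoxc10, Hoxa5, Hoxc9, Hoxa10, Hoxd10, Hoxc6 and Hoxc8 held without any 1 day, but Hoxc6 was lost on days 6 to 30 alone. The summed fibroblast markers had a median of 78978 in minus BrdU, against 25748 in the full course, and their part in the Hox difference was not tested. The listed markers did not all follow the sum. Thy1, chosen after its values were seen, was at 28, 14 and 24 in minus BrdU on days 30, 36 and 40. In the full course it was at 176, 269 and 255 on those days. Twist2, also listed, was at 277, 481 and 345 in minus BrdU, against 24, 20 and 20.

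**Figure D3:**
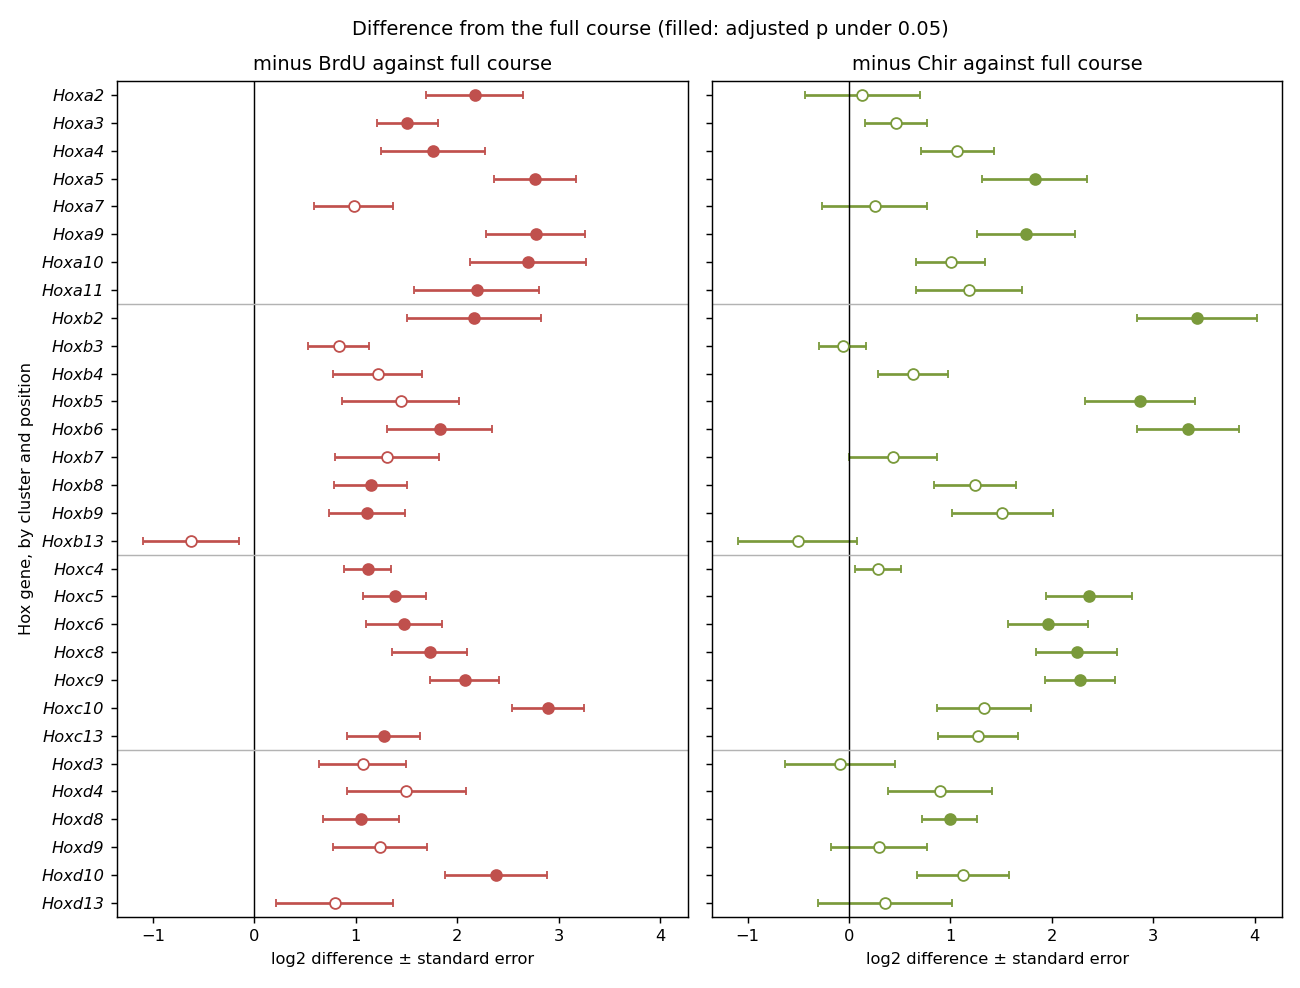
Log2 difference ± standard error of each of 30 Hox genes (rows, by cluster and position), minus BrdU against full course on the left and minus Chir against full course on the right. Filled points passed an adjusted p of 0.05, 20 on the left and 10 on the right, and none of them lies below 0.

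The difference without BrdU was larger on late days. An interaction term in the same fit called 14 of 31 members with a larger difference on days 30 to 40 than on days 6 to 22 and 0 with a smaller one, against 7.02% and 6.58% of all genes. All 31 members had a positive term, with a median of 1.99. An unadjusted p under 0.05 was found for 23 members and for 4987 of all 16308 genes. Hoxd9 differed by a mean of 2.67 on days 30 to 40 and 0.16 on days 6 to 22, a term of 2.51 ± 0.41 (adjusted p = 0.00766). Hoxb8 differed by 2.26 on the late days and 0.31 on the early ones, a term of 1.94 ± 0.32 (adjusted p = 0.00751), and Hoxa4 by 3.35 and 0.57, a term of 2.78 ± 0.46 (adjusted p = 0.00803). For Hoxc10 the means were 3.74 on the late days and 2.27 on the early ones, and its term did not pass (adjusted p = 0.0964). The count of called members was between 4, without day 40, and 17, without day 22, and it was 6 without day 12 or day 36 and 8 without day 18.

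In minus BrdU several genes of clusters B, C and D had their lowest values on days 18 and 22 and values near MEF on day 40. Hoxb6, a thoracic gene, was at 68 in MEF and at 36, 24, 16, 11, 44, 48 and 70 in minus BrdU on days 6 to 40, against 29, 22, 6, 5, 5, 5 and 3 in the full course. Its values returned to the MEF level on day 40 in minus BrdU and stayed at 3 to 6 in the full course from day 18. On day 40 the 30 members above 0 in MEF stood at a median of 114% of MEF in minus BrdU, and 19 were above MEF. Of all 16378 genes with a mean of at least 1, 47.3% were above MEF and 44.4% below it on that day. The members under 50% of MEF were Hoxa7 at 16.4% and Hoxd13 at 3.61%. Hoxd13 was at 24, 11, 7, 10, 12, 12 and 6 in minus BrdU, against 20, 10, 16, 18, 0, 2 and 2 in the full course and 166 in MEF. Both courses were thus far below MEF, and the macrophage markers were high in that same MEF library. Whether the 1 MEF library is typical for Hoxd13, or its Hoxd13 value relates to the macrophage markers, was not tested.

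**Figure D4:**
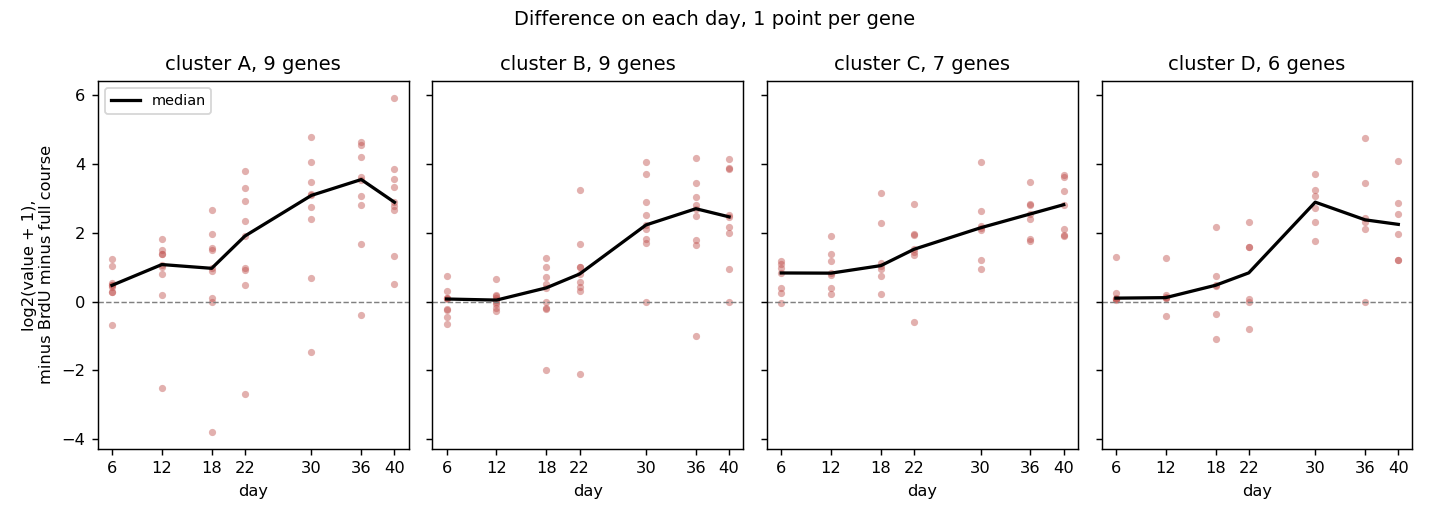
Difference in log2(value + 1), minus BrdU minus full course, by day for the Hox genes of each cluster (points, 1 per gene; black line, median; Hoxc12, at 0 throughout, left out). In cluster A the median is 0.47 on day 6 and 3.55 on day 36, and in cluster B it is 0.08 on day 6 and 2.70 on day 36.

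Without Chir, some Hox genes were called higher, most of them at positions 5 to 8. Over the 5 shared days, 10 of 31 members were higher in minus Chir than in the full course and 0 lower, against 13.5% of all 16248 genes called higher and 12.9% called lower. The members' median difference was 1.06, against 0.01 over all genes. An unadjusted p under 0.05 was found for 17 members and for 7004 of all 16248 genes. On the same days minus BrdU had 11 members higher than the full course. The fit of minus BrdU on those days called 3735 of 16213 genes in either direction, against 4298 of 16248 for minus Chir. Over these days the summed fibroblast markers had a median of 20860 in minus Chir, against 25938 in the full course. Of the members tested, 1 of 10 was called at positions 1 to 4, 7 of 10 at positions 5 to 8 and 2 of 11 at positions 9 to 13, and position itself was not tested. Cluster C had 4 of 7 higher, B 3 of 9, A 2 of 9 and D 1 of 6. The counts of clusters A and D, and of positions 1 to 4 and 9 to 13, are near the 13.5% of all genes.

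Hoxb6 was at 103, 98, 84, 108 and 194 in minus Chir on days 6, 12, 18, 22 and 30, against 29, 22, 6, 5 and 5 in the full course and 68 in MEF. It was above MEF throughout minus Chir, with a difference from the full course of 3.34 ± 0.50 (adjusted p = 0.0103). Hoxb2, a hindbrain gene, was at 156, 114, 146, 82 and 122 in minus Chir, against 48, 34, 10, 1 and 4 in the full course and 70 in MEF, a difference of 3.43 ± 0.59 (adjusted p = 0.0136). Hoxc9 was at 126, 80, 65, 63 and 62 in minus Chir, against 40, 34, 7, 7 and 10 in the full course, a difference of 2.28 ± 0.35 (adjusted p = 0.0106). None of these 3 genes overlapped between the courses.

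The neighbour of Hoxb2 and its paralog, with Hoxb3 chosen after its values were seen, had other values. Hoxb3 was at 68, 66, 48, 30 and 32 in minus Chir, against 98, 62, 42, 42 and 24 in the full course, a difference of -0.06 ± 0.23 (adjusted p = 0.854). Hoxa2, the other position 2 gene, was at 13, 1, 9, 8 and 9 in minus Chir, against 15, 8, 6, 3 and 3 in the full course, a difference of 0.13 ± 0.57 (adjusted p = 0.877). Values of both overlapped between the courses.

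All 10 calls were lost without day 18 and without day 22, while the differences of the leading genes stayed similar in size. Without day 18 the fit called 0 members and 25 genes of the whole table, and without day 22 it called 0 members and 226 genes. Without day 18 the differences were 3.28 for Hoxb6 (adjusted p = 0.0615), 2.09 for Hoxc9 (adjusted p = 0.0615) and 3.35 for Hoxb2 (adjusted p = 0.0702), and without day 22 they were 3.13, 2.10 and 2.94. Hoxa5, Hoxa9 and Hoxd8 were also lost without day 12, and Hoxd8 without day 30. The median difference of all 32 members was 1.08 on day 18, 1.32 on day 22 and 2.28 on day 30. Without day 6 the fit called 16 members higher and 1 lower, and 4994 of 16218 genes in either direction. A single fit over all 19 course libraries called 16 members higher, and 6895 of 16364 genes in either direction. The main fit called 4298 of 16248 genes, so calls rose over all genes as well.

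Set against each other over the same 5 days, minus Chir and minus BrdU had called members in both directions. In minus Chir, 7 of 31 members were higher than in minus BrdU and 3 lower, against 16.9% and 15.2% of all 16087 genes. Both counts are near those shares, and the median difference was -0.02. This comparison shares its libraries with those above. The higher members included Hoxb6 (2.22 ± 0.26, adjusted p = 0.00131), Hoxb2, Hoxb5, Hoxc5, Hoxc6 and Hoxc8, and the lower ones were Hoxc10, Hoxa2 and Hoxa10.

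Hoxc5 was at 259, 136, 97, 105 and 93 in minus Chir, against 164, 52, 30, 22 and 48 in minus BrdU, a difference of 1.37 ± 0.24 (adjusted p = 0.00607). Hoxb2 was at 156, 114, 146, 82 and 122 in minus Chir, against 30, 30, 21, 18 and 64 in minus BrdU, a difference of 2.0 ± 0.27 (adjusted p = 0.00218). Both were higher in minus Chir on all 5 days.

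The posterior Hoxc10 went the other way. It was at 52, 28, 38, 22 and 26 in minus Chir, against 116, 92, 53, 56 and 98 in minus BrdU, a difference of -1.29 ± 0.24 (adjusted p = 0.0072). Hoxa10 was at 134, 70, 67, 69 and 132 in minus Chir, against 99, 200, 137, 175 and 254 in minus BrdU, a difference of -0.87 ± 0.28 (adjusted p = 0.0491). Hoxa2 was at 13, 1, 9, 8 and 9 in minus Chir, against 32, 18, 12, 14 and 26 in minus BrdU, a difference of -1.41 ± 0.45 (adjusted p = 0.0487). The Hoxc10, Hoxc5, Hoxb2 and Hoxb6 calls held without any 1 day, whereas Hoxa10 reached an adjusted p of 0.146 and Hoxa2 of 0.0953 when a day was left out. Over these days the fibroblast markers summed to 10676 to 38389 in minus Chir, against 40992 to 89016 in minus BrdU, and their part was not tested.

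In CiPSC most Hox genes were at or near 0. Hoxa2, Hoxb5, Hoxb6, Hoxb7, Hoxc8, Hoxd3 and Hoxd4 were listed at 0 in all 6 CiPSC libraries, 25 of the 32 members were at 0 in at least 1 and 22 had a mean under 5. Of all genes, 10.4% to 14.2% were at 0 in a given CiPSC library. In 27 members every CiPSC library lay below MEF, and the share of all genes with that pattern was not counted. Hoxc6 was at 264 in MEF, against 3, 3, 0, 0, 0 and 0 in CiPSC, a difference of 7.38 ± 1.04 (adjusted p = 0.00275). Hoxb3 was at 84 in MEF, against 1, 1, 0, 1, 1 and 2 in CiPSC, a difference of 5.48 ± 0.52 (adjusted p = 0.000605). Among the 25 members not at 0 throughout CiPSC, 13 were higher in MEF and 2 lower (background 15.8% and 23.2% of 15771 genes). The spread in this fit came from the 6 CiPSC libraries, and the lone MEF and day 40 libraries were assumed to vary like them. For Hoxb3 those values were 0 to 2 and equal to those of Hoxb2 in each library. Its standard errors here and on day 40 thus rest on values near the floor.

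Day 40 of minus BrdU had 16 of these 25 members higher than CiPSC and 1 lower (background 16.7% and 23.3%), and day 40 of the full course had 3 higher and 2 lower (10.2% and 15.4%). The counts on day 40 of the full course are near that background, and the higher members there were Hoxb3, Hoxc5 and Hoxc6. Hoxc6 was at 38 on that day, against 3, 3, 0, 0, 0 and 0 in CiPSC, a difference of 4.62 ± 1.04 (adjusted p = 0.0238). Hoxb3 was at 36 on that day, against 0 to 2 in CiPSC, a difference of 4.28 ± 0.52 (adjusted p = 0.00313). The Hoxc5 call was lost, with an adjusted p of up to 0.0828, without CiPSC library 1, 2, 3, 4 or 6. The 7 members at 0 in CiPSC were at 3 to 12 on day 40 of the full course. The 3 comparisons share the CiPSC libraries, and rescaling each library by its median ratio put the median of all genes at 0.06 for MEF, against -0.15 without rescaling.

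**Figure D5:**
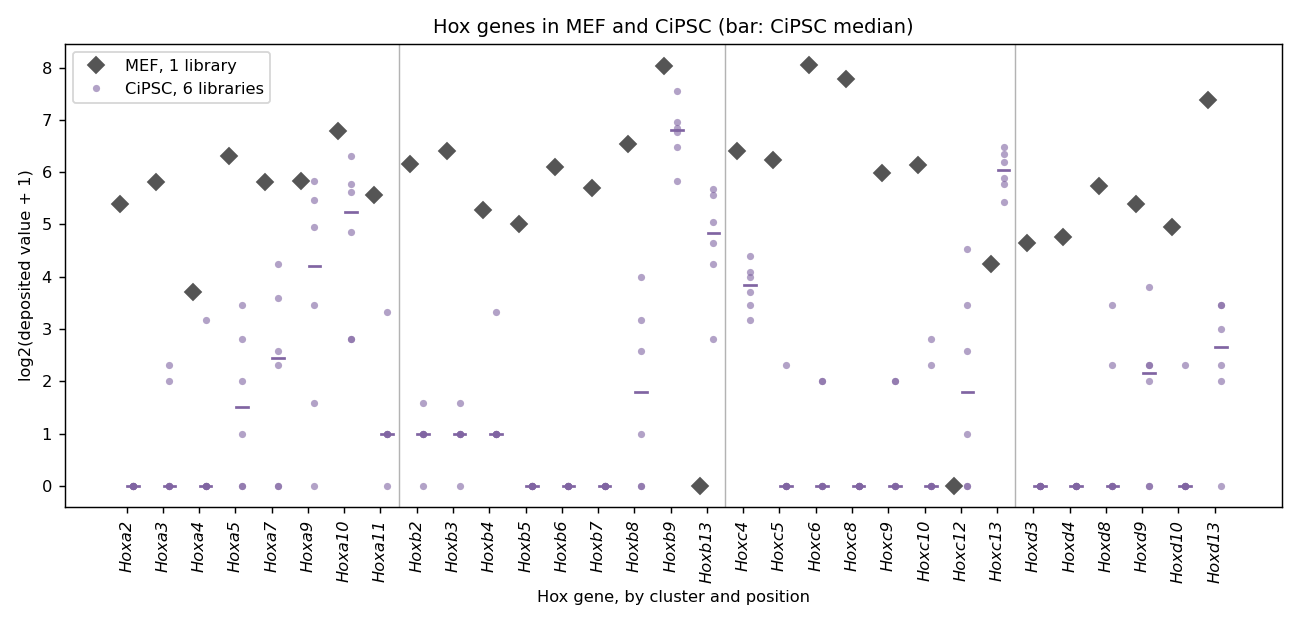
Log2(deposited value + 1) of 31 Hox genes in MEF (diamonds, 1 library) and CiPSC (points, 6 libraries; bar, median), by cluster and position. Diamonds lie above all CiPSC points in 27 genes, and in Hoxb13 and Hoxc13 all 6 CiPSC points lie above the diamond. The shares of all genes with these patterns were not counted.

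A few members kept or gained values in CiPSC, and Hoxb13, Hoxc12 and Hoxc13 were singled out after their values were seen. Per kilobase of exon, high means in CiPSC were those of Hoxb9 at 43.8 ± 16.8 (SD, n = 6), Hoxc13 at 26.7 ± 7.04, Hoxb13 at 13.3 ± 7.64 and Hoxa10 at 11.2 ± 8.77. In MEF the same genes were at 101, 7.31, 0 and 33.6 per kilobase. Hoxb9 and Hoxa10 were thus lower than MEF in every CiPSC library, while Hoxc13 and Hoxb13 were above it in every one.

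Hoxc13, which acts in hair follicles, nails and tongue, was at 18 in MEF, against 72, 80, 54, 42, 88 and 58 in CiPSC, a difference of -1.77 ± 0.44 (adjusted p = 0.0222). On day 40 it was at 26 in minus BrdU and at 6 in the full course, and the full course difference from CiPSC was -3.21 ± 0.44 (adjusted p = 0.00465). Hoxb13, a gene of the prostate and hindgut, was at 0 in MEF and on day 40 of both courses, against 32, 50, 24, 6, 46 and 18 in CiPSC (adjusted p = 0.0166 for MEF). No fold is given against a library listed at 0, and the call was lost with a pseudocount of 5. Hoxc12 was at 0 in MEF and in all 19 course libraries, against 22, 10, 1, 5, 0 and 0 in CiPSC. Only Hoxb13 and Hoxc13 passed the test as lower in MEF.

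Genes that work with the Hox proteins were read from lists, against the 21.1% higher and 21.5% lower of all genes in minus BrdU against the full course. Of 9 cofactors, the Pbx, Meis and Pknox homeodomain proteins that bind DNA with Hox proteins, 5 were higher and 1 lower. Meis2 was at 2220, 1994, 1392, 1374, 698, 590 and 616 in minus BrdU, against 998, 659, 297, 241, 68, 80 and 82 in the full course, a difference of 2.37 ± 0.25 (adjusted p = 0.00053). Pbx2 was the lower one at -0.64 ± 0.17 (adjusted p = 0.0144). Of 33 homeobox and T-box genes of limb and body wall outside the clusters, 16 were higher and 4 lower, with Twist2, also in the fibroblast marker list, at 2.70 ± 0.40 and Tbx15 at 1.65 ± 0.44 among the higher and Pitx1, a hindlimb gene, at -3.92 ± 0.97 among the lower. Of 20 genes at the edges of the clusters, 3 were higher and 4 lower, near the shares of all genes, with a median of 0.18.

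Of 10 transcripts within or against the clusters, 2 were higher and 1 lower in minus BrdU. These counts are no larger than the shares of all genes, 21.1% higher and 21.5% lower. Hoxaas3, antisense to Hoxa3 and Hoxa7, was at 34, 22, 17, 7, 19, 24 and 20 in minus BrdU, against 18, 6, 7, 8, 4, 0 and 1 in the full course, a difference of 1.95 ± 0.55 (adjusted p = 0.0193). Gm15050 was the other higher one, and Halr1, in the Hoxa region, the lower one at -1.22 ± 0.43 (adjusted p = 0.0473). Hotairm1 was higher in minus Chir than in the full course by 2.03 ± 0.41 (adjusted p = 0.0174). It was the 1 called among these 10, with 13.5% of all genes called higher. In the full course trend, where 7.42% of all genes fell and 9.31% rose, 6 of these 10 transcripts fell and 0 rose. Of the 20 edge genes 0 fell and 3 rose, which is near that background.

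Chromatin regulators known to act on the clusters were more often lower than higher in minus BrdU. Of 25 Polycomb genes, which keep Hox genes silent, 12 were lower in minus BrdU than in the full course and 3 higher. Ezh2, the H3K27 methyltransferase, was at 163, 131, 108, 114, 50, 64 and 67 in minus BrdU, against 172, 205, 292, 265, 210, 332 and 533 in the full course, a difference of -1.53 ± 0.32 (adjusted p = 0.00558). Suz12 differed by -1.32 ± 0.24 (adjusted p = 0.00318), and Cbx6 was among the higher at 1.42 ± 0.23 (adjusted p = 0.002). Of 13 Trithorax group and H3K27 demethylase genes, which keep Hox genes active, 10 were lower and 0 higher, with Kmt2b at -1.16 ± 0.19 (adjusted p = 0.00216). Cdx2, an upstream activator of Hox genes in the tail bud, was at 1, 1, 0, 1, 1, 1 and 1 in minus BrdU, against 1, 9, 16, 44, 66, 80 and 32 in the full course (-3.62 ± 0.63, adjusted p = 0.00262). Of 15 retinoic acid genes, 6 were higher and 3 lower, with Rarb at 2.60 ± 0.47 and Crabp1 at 3.57 ± 0.30 among the higher and Cyp26a1 at -7.03 ± 0.61 among the lower.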

How the data were processed

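RNA was measured in 26 libraries of TRIzol-extracted total RNA, made with TruSeq RNA chemistry and sequenced for 75 cycles (NextSeq 500), per the labels' protocols. Bowtie2, RSEM, bcl2fastq and the mm10 build appear, unversioned, among the submitters' processing notes. The deposited values are treated as a score: whole numbers with a maximum of 21988 held by 10 genes in every library and medians of 76 to 77, a pattern that quantile normalization leaves. That step and the unit are not given in the sources used here. Depth is unknown, no counting interval can be given and no count test was run.

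Differences were fitted with limma 3.58.1 in R 4.3.3 on log2(value + 1), with an intensity trend, over genes with a mean of at least 1, and adjusted by Benjamini-Hochberg over all genes tested. A called gene had an adjusted p under 0.05. Fold changes on this scale understate those of low genes. Course comparisons had day as a block, trends used MEF and 1 course with day as a number, and 1 fit held MEF, both day 40 libraries and CiPSC. Genes at 0 in all CiPSC libraries got no fold. The fits were tested on simulated data.

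Values by day, in courses being compared, are given for the 2 members with the highest mean in each cluster. In each course comparison they are also given for the 3 called members with the smallest p in each direction. Called members against the common direction are given too, and other members are named as examples. Not every library is listed for each of these members. From each other list at most 6 genes by p without BrdU and 4 by p without Chir could be named. Members and lists were chosen with earlier results of these data known. Alternatives were another pseudocount (5), no filter or a mean of at least 5, median ratio rescaling, no intensity trend, no day block, 1 fit over the 19 course libraries, rank of the day, days 6 to 30, and each day or library left out. Single-gene results of some genes are not reported here; counts and medians over the members include all of them.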

Additional observations from a re-analysis of the deposited data

Results flagged for a closer look

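In the difference of the BrdU effect between late and early days, 14 members passed the interaction test in limma. The terms were 2.84 for Hoxa10, 2.78 for Hoxa4, 2.07 for Hoxa5, 2.95 for Hoxb5, 2.69 for Hoxb6, 2.55 for Hoxb7, 2.34 for Hoxb4, 1.94 for Hoxb8, 1.83 for Hoxb9, 1.99 for Hoxc6, 1.78 for Hoxc8, 2.72 for Hoxd13, 2.51 for Hoxd9 and 2.02 for Hoxd8. All were larger on days 30 to 40 than on days 6 to 22.

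Single libraries stood apart from the rest of their group in 25 of 118 cases (21.2%) by Dixon's gap test, which flags about 5% of groups by chance. Most were day 6 libraries that were higher than every later day, and days are ordered times rather than repeats. In minus BrdU, day 6 stood high for Hoxa4 at 75 (next 36), Hoxa5 at 402 (next 210), Hoxa7 at 18 (next 9), Hoxc5 at 164 (next 60) and Hoxd13 at 24 (next 12). In minus Chir, day 6 stood high for Hoxc5 at 259 (next 136), Hoxc9 at 126 (next 80), Hoxd3 at 11 (next 4) and Hoxd13 at 39 (next 10). In the full course, day 6 stood high for Hoxa4 at 56 (next 22), Hoxb5 at 19 (next 7), Hoxc5 at 125 (next 39), Hoxc10 at 51 (next 24), Hoxd4 at 50 (next 14) and Hoxd10 at 11 (next 4).

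At the other end of the courses, day 30 of minus Chir stood high for Hoxb6 at 194 (next 108), Hoxb8 at 179 (next 84) and Hoxc6 at 392 (next 275). Hoxb13 reached 12 on day 22 of the full course (next 3). In CiPSC the libraries that stood apart were library 3 for Hoxa4 at 8 and Hoxb4 at 9, library 4 for Hoxd9 at 13, library 5 for Hoxc5 at 4 and Hoxd10 at 4, and library 6 for Hoxa11 at 9.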

How the results depend on the processing

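Of 77 calls for single members, 27 kept direction and call under all alternatives tried, 50 lost the call in at least 1 and 0 reversed. Leaving out 1 day at a time, minus BrdU had 12 to 25 members higher and 0 to 1 lower than the full course, minus Chir 0 to 16 higher and 0 to 1 lower, and minus Chir 5 to 8 higher and 1 to 3 lower than minus BrdU. The late against early BrdU effect had 4 to 17 members, and the falling trend of the full course 10 to 23. The minus BrdU trend had 0 to 1 falling, the 1 without MEF. Leaving out 1 CiPSC library, day 40 of the full course had 2 to 5 members higher and 1 to 2 lower, day 40 of minus BrdU 11 to 14 higher and 1 to 2 lower, and MEF 11 to 14 higher.

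Days 6 to 30 alone gave 11 members higher without BrdU, with fewer libraries and 3735 of 16213 genes called in either direction. Without the day block or in 1 fit over 19 libraries, 1 member was lower without BrdU. That single fit gave 16 members higher without Chir, where it called 6895 of 16364 genes in either direction. It gave 3 members higher and 4 lower in minus Chir than in minus BrdU. Members lower in minus Chir than in minus BrdU numbered 1 with no filter on low values and 1 with no intensity trend. Pseudocount 5 gave 5 higher and 1 lower on day 40 of the full course, 0 lower on day 40 of minus BrdU and 1 lower in MEF, each against CiPSC. The causes of these moves were not tested.

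With 1 library a day and depth unknown, differences of members at values of a few units cannot be given a counting error. Low values fall on common steps: Hoxb2 and Hoxb3 had the same value in each CiPSC library. The course comparisons paired libraries by day, and replicate numbers, given in accession order, paired nothing further.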

Other observations

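On day 6 several Hox genes stood above MEF in all 3 courses, which share the 1 MEF library. Hoxa4, a cervical gene, was at 75 in minus BrdU, 58 in minus Chir and 56 in the full course, against 12 in MEF. Hoxa5 was at 402, 226 and 170 in the same order, against 78 in MEF, and Hoxc5 at 164, 259 and 125, against 74 in MEF. The neighbour Hoxa7 lay below MEF, at 18 in minus BrdU, 9 in minus Chir and 12 in the full course, against 55 in MEF. Over all 32 members, 14 in minus BrdU, 17 in minus Chir and 9 in the full course were above MEF on day 6, against 45.3%, 47.6% and 45.4% of all genes, so the set as a whole did not stand above MEF.

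Summed over members, cluster D was at 210 on day 40 of minus BrdU and 38 on day 40 of the full course, against 339 in MEF. Without Hoxd13 its sum was 204 in minus BrdU and 36 in the full course, against 173 in MEF. Cluster B was at 936 in minus BrdU and 185 in the full course, against 694 in MEF, and cluster A at 608 and 51, against 477 in MEF. These sums mix genes of different lengths and are given with no test.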
